A study of Capsicum annuum and Capsicum chinense and Capsicum annuum var. glabriusculum with 33 samples.

Results

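The genes described here are the 100 that stood highest in mature green and breaker fruit of the pepper inbred line Zunla 1, relative to every other organ and fruit stage of that line. They were chosen by measured values from the 31426 genes of the deposited table. A gene qualified when its highest value over the 14 Zunla 1 libraries lay in mature green or breaker fruit and reached 10 RPKM. RPKM is a read count divided by the length of the gene and by the number of mapped reads, so levels of different genes can be set side by side. The 740 qualifying genes were ranked by log2(mean of both stages + 1) minus log2(highest of the other 12 libraries + 1), and the first 100 were kept. Values in Zunla 1 are therefore a description of the choice, and tests were run only in libraries the choice did not use.

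Pepper fruit grows to full size while green, the stage called mature green. It reaches the breaker stage when the first colour change shows, and then loses chlorophyll and fills with carotenoids as it turns red. A fruit is a composite of the wall, the placenta that bears the seeds, and the seeds themselves, and each of these matures on its own schedule. The labels give the tissue only as fruit and do not say which of these parts were extracted, so a change in the amount of a tissue and a change in RNA per cell cannot be told apart in these bulk libraries.

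Poly(A) RNA was sequenced from 33 libraries, with 1 library for each line and organ or stage. Zunla 1 (Capsicum annuum) gave root, stem, leaf, bud, flower and 9 fruit stages: fruit of 0 to 1, 1 to 3, 3 to 4 and 4 to 5 cm, mature green, breaker, and 3, 5 and 7 days after breaker. Mature green fruit also came from 8 other C. annuum lines (ZJ32, ZJ9, ZJ49, 11c255, G16, 11c320, T803 and SP3), and fruit 5 days after breaker from ZJ49 and ZJ7. HYL, a C. chinense line, gave root, stem and leaf of seedlings and fruit at mature green and at 5 days past breaker. Chiltepin, the wild C. annuum var. glabriusculum, gave breaker fruit, a leaf mixture of 4 growth phases and a mixture of buds and open flowers. The SP3 library has that name in its title and SP163 in its description, and is called SP3 here. One further fruit library carries the names of different lines in its title and in its description and was kept out of every comparison.

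Read totals recovered from the RPKM steps fell into a shallower set of 25 libraries, from 12691809 to 15864306 reads, and a deeper set of 8, from 25923891 to 31213971 reads. The deeper set holds the 3 chiltepin libraries and the mature green libraries of 11c255, 11c320, G16, T803 and SP3. For a gene of 1 kilobase, 3 reads correspond to 0.189 to 0.236 RPKM in the shallower set and 0.0961 to 0.116 RPKM in the deeper set, which is the level a value of 0 allows by counting error alone. The gene identifiers (Capana numbers) are not paired with names in the files, and 0 of the 31426 matched the RefSeq gene table at hand. No gene name, function or sequence is therefore given, and the organ labels were not checked against marker genes.

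In mature green fruit of Zunla 1 the 100 genes held 35.8% of all summed RPKM, and in breaker fruit 22.5%. In recovered reads, as a share of the read total of the library, these values were 34.03% (95% Wilson interval 34.00 to 34.05) and 20.72% (20.70 to 20.74). The interval covers counting error only. In the other Zunla 1 fruit libraries the share was 0.0208% at 0 to 1 cm, 0.0283% at 1 to 3 cm, 0.738% at 3 to 4 cm, 0.244% at 4 to 5 cm, 2.88% at 3 days, 3.74% at 5 days and 0.876% at 7 days after breaker. The 5 other organs lay between 0.0218% in flower and 0.0424% in bud. The share was thus lower at 4 to 5 cm than at 3 to 4 cm, and higher at 5 days than at 3 or 7 days after breaker, with 1 library behind each value.

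**Figure D1:**
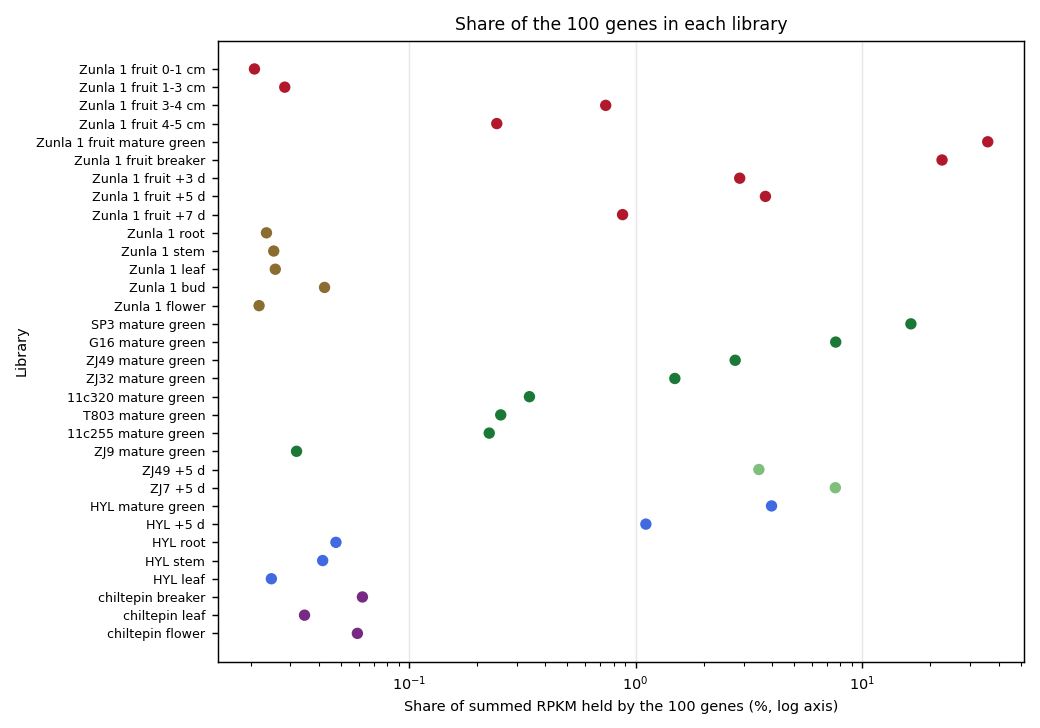
Share of summed RPKM held by the 100 genes (horizontal log axis, percent), 1 point a library, coloured by line and organ class. Zunla 1 mature green fruit is farthest right at 35.8%, the 8 other C. annuum mature green libraries spread from 0.0319% to 16.4%, and chiltepin breaker fruit lies at 0.0623%, beside its flower and leaf.

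Of the 100 genes, 90 were highest at mature green and 10 at breaker. The mature green value was more than 2-fold the breaker value for 59 genes, the breaker value was more than 2-fold the mature green value for 6, and the other 35 lay within 2-fold. Mean RPKM over both stages ran from 6.38 to 61086 with a median of 69.2. Most of the summed RPKM came from few genes: 8 had a mean of 10000 or more, 10 lay between 1000 and 10000, 23 between 100 and 1000, 49 between 10 and 100, and 10 under 10. Those 8 held 31.6% of all RPKM at mature green, when the other 92 genes held 4.11%. At breaker the 8 held 20.3% and the others 2.22%. Among the 10 most abundant genes of the mature green library, 7 were members, and 5 were at breaker.

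**Figure D2:**
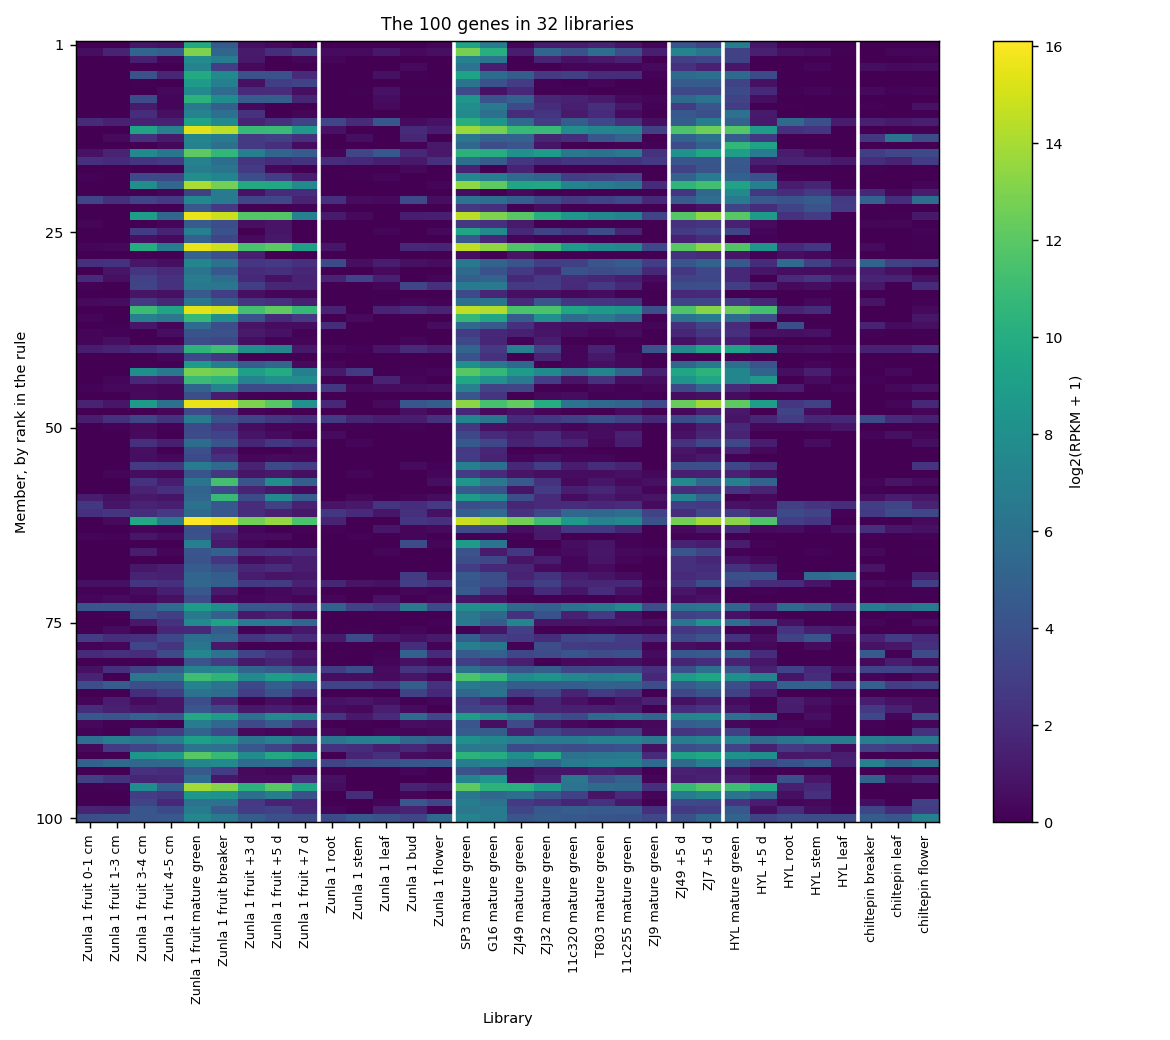
Level of each of the 100 genes, as log2(RPKM + 1) by colour, in rows by rank in the rule and in 32 columns by library, with white lines between the library classes. The 8 most abundant genes are the brightest rows in Zunla 1 mature green and breaker fruit. Among the 8 other C. annuum mature green columns, SP3 and G16 have the highest median member, at 69.5 and 31.7 RPKM.

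The most abundant gene was Capana01g000309, with 70865 RPKM at mature green and 51307 at breaker. Over the 4 earlier fruit stages it had 0, 0.332, 842 and 93.7 RPKM, and 3, 5 and 7 days after breaker 6526, 11977 and 2950. The 5 organs had 1.94 in root, 0 in stem, 0 in leaf, 4.62 in bud and 3.53 in flower. It thus had a small earlier maximum at 3 to 4 cm, and its value 7 days after breaker was still above that one.

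Capana00g001372 had 49045 RPKM at mature green and 46853 at breaker, after 2.08, 0.957, 430 and 60.0 in the earlier stages. It then had 7681, 3828 and 278 RPKM at 3, 5 and 7 days after breaker, and 0 to 26.5 in the organs. Unlike Capana01g000309, its values went down at each of these later steps.

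Capana03g003298 (48047 RPKM at mature green, 30691 at breaker) and Capana03g003296 (48331 and 28971) carry nearby numbers and had like courses. At 3 to 4 cm they had 989 and 533 RPKM, and at 4 to 5 cm 114 and 40.5. At 5 days after breaker they had 4099 and 3500. Reads shared between similar gene copies could not be assessed from the table, so the split between such neighbours is uncertain. Capana01g000302, the last of the 5 most abundant genes, had 44669 and 31412 RPKM, and its value at 3 to 4 cm, 2104 RPKM, exceeded that of the other 4.

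The genes first in the ranking were not the most abundant ones. Capana10g001064, at its head, had 891 RPKM at mature green, 22.5 at breaker and at most 0.957 in the other 12 libraries. Capana11g000329 had 8059 RPKM at mature green and 37.4 at breaker, against 37.2 at 3 to 4 cm and 27.7 at 4 to 5 cm. Its breaker value thus lay close to those of growing fruit, and mature green alone stood out.

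Capana11g000370 had 215 RPKM at mature green and 111 at breaker, with at most 1.59 elsewhere. Capana05g002382 had 146 and 7.05 RPKM, and at most 0.33 elsewhere. Capana03g003834 had 928 and 201 RPKM, and 15.6 at 5 days after breaker was the highest of its other values. Of these 5 genes Capana11g000370 alone had a breaker value within 2-fold of mature green.

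**Figure D3:**
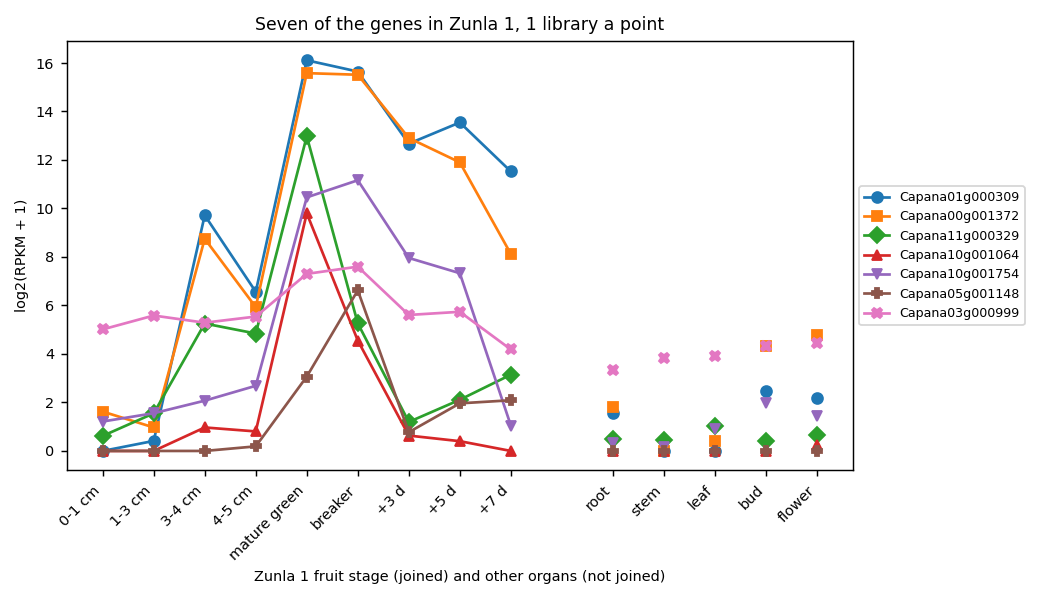
Level in Zunla 1 of 7 of the genes, as log2(RPKM + 1), over 9 fruit stages (joined points) and 5 other organs (separate points), 1 library a point. Capana11g000329 goes from 8059 RPKM at mature green to 37.4 at breaker, Capana05g001148 is highest at breaker with 97.6 RPKM, and Capana03g000999 stays at 17.2 RPKM or more through all fruit stages.

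The ranking score ran from 7.87 at the top to 1.63 at its edge. Just inside were Capana04g002212 (mean 59.7 RPKM, highest other value 18.6) and Capana06g001995 (132 and 42.2), both with a score of 1.63. Just outside were Capana01g000828 (35.8 and 10.9), also at 1.63, and Capana10g001258 (179 and 58.1) at 1.61. The edge therefore separates genes of like score.

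The low level outside the peak took different forms. In the 5 organs of Zunla 1, 54 genes stayed under 1 RPKM in all, 15 of them at 0 throughout, and 16 reached 10 RPKM in at least 1 organ. Only 4 reached 10 RPKM in 3 or more organs: Capana07g001286, Capana03g001116, Capana03g000999 and Capana06g001995. In the 2 smallest fruit stages 72 genes were under 1 RPKM. After mature green and breaker, the library with the next highest value was fruit 5 days after breaker for 33 genes, fruit of 3 to 4 cm for 19, fruit 3 days after breaker for 13, bud for 11 and fruit of 4 to 5 cm for 7.

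Movement between neighbouring stages was shared by much of the list but not all of it. From the mean of both peak stages to 3 days after breaker the median gene fell by 3.48 on the log2(RPKM + 1) scale. Values at 3 to 4 cm exceeded those at 4 to 5 cm for 63 genes and were lower for 32, with 5 equal. Values at 5 days after breaker exceeded those at 3 days for 56 genes and were lower for 41. They exceeded those at 7 days for 69 genes and were lower for 23. With 1 library a stage, these counts describe the libraries and have no replicate check.

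A small group of genes was highest at breaker. Capana00g001370 had 38.5 RPKM at mature green and 1973 at breaker, and Capana00g001371 had 75.6 and 2589. Both were chosen for mention after their values were seen. They carry the numbers directly before Capana00g001372, which was near its maximum at both stages. All 3 were lower 3 days after breaker than at breaker, with 11.2, 16.3 and 7681 RPKM. At 5 days Capana00g001370 and Capana00g001371 had 190 and 247 RPKM, above their 3-day values, whereas Capana00g001372 was lower at 5 days.

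All 100 genes had a recovered coding length, with a median of 830 bases (315 to 3102) against 972 for all genes with a length. The 8 most abundant spanned 378 to 1461 bases. By identifier, 14 members had another member at the next number and 23 had one within 10 numbers. The identifier prefix 00 was carried by 15% of members and 10.9% of all genes.

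The mature green libraries of 8 other C. annuum lines were not used in the choice, and the label given to the list was checked against them. At that stage the share of summed RPKM was 16.4% in SP3, 7.64% in G16, 2.75% in ZJ49, 1.49% in ZJ32, 0.34% in 11c320, 0.254% in T803, 0.226% in 11c255 and 0.0319% in ZJ9. The mean was 3.65% ± 5.76 (SD, n = 8) and the median 0.912%. Without SP3 the mean was 1.82%. All 8 lay below Zunla 1, which the choice of genes from Zunla 1 itself favours, so nothing is read from that difference. Among the 8, ZJ9 lay inside the range of the non-fruit organs of Zunla 1 and the other 7 lay above it. The deeper set covered 0.226% to 16.4% and the shallower set 0.0319% to 2.75%, and the part of depth in these differences was not tested.

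Counted gene by gene, 82 members reached 10 RPKM in SP3, 64 in G16, 38 in ZJ49, 32 in T803, 31 in ZJ32, 29 in 11c255, 27 in 11c320 and 10 in ZJ9, against 98 in Zunla 1. The median member had 69.5 RPKM in SP3, 31.7 in G16, 4.54 in ZJ49, 3.4 in ZJ32, 2.69 in T803, 1.81 in 11c320, 1.35 in 11c255 and 0.177 in ZJ9, against 93.2 in Zunla 1. SP3 held the highest of the 8 values for 84 members, G16 for 10 and ZJ49 for 4. Among genes of 1 RPKM or more in any of the 8 lines, SP3 lay above the other 7 for 82 of 97 members and for 9.07% of all genes. A gene that reached 1 RPKM in SP3 alone lay above the other 7 by that filter, and such genes were not counted. In ZJ9 40 members were at 0, and in SP3 1 was. SP3 and G16 thus had the most members at 10 RPKM, and ZJ9 the fewest. The counts at 10 RPKM and at 0 have no share over all genes beside them, so they describe the members only. SP3 and G16 are in the deeper set and ZJ9 in the shallower one, and the part of depth in the counts at 0 was not tested.

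**Figure D4:**
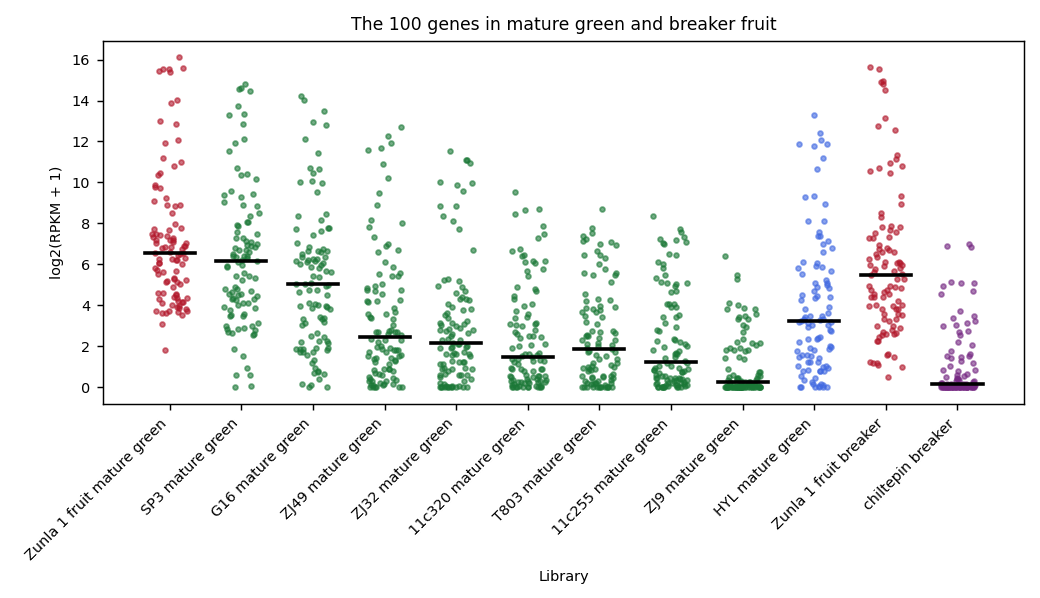
Level of the 100 genes, as log2(RPKM + 1), in mature green and breaker fruit libraries, 1 point a gene with a bar at the median gene. The medians correspond to 93.2 RPKM in Zunla 1 mature green, 69.5 in SP3, 31.7 in G16, 0.177 in ZJ9 and 0.107 in chiltepin breaker fruit.

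Levels were also correlated with those of Zunla 1, the line that chose the genes. Across the 100 genes, the Pearson correlation of log2(RPKM + 1) with Zunla 1 mature green fruit was 0.91 in SP3, 0.87 in G16, 0.87 in ZJ49, 0.85 in ZJ32, 0.77 in 11c320, 0.76 in T803, 0.71 in 11c255 and 0.57 in ZJ9. Over all 21243 genes tested across these lines the same correlations were 0.88, 0.82, 0.85, 0.83, 0.76, 0.76, 0.75 and 0.75, so the members' values lay near those of all genes in every line but ZJ9, where the members' was lower. These values are across genes, which are not independent replicates, and share the Zunla 1 library. The range over the 8 lines had a median of 4.56 on the log2 scale for members and 1.54 for those 21243 genes. Members at 10 RPKM or more in SP3 and under 1 RPKM in ZJ9 numbered 53, whereas 9 reached 10 RPKM in all 8 lines and 18 in none. These counts have no share over all genes beside them, so whether they are unusual is not read from them.

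The widest range over the 8 lines, 11.62 on the log2(RPKM + 1) scale, belonged to Capana11g000329. It had 7330 RPKM in SP3, 1079 in G16, 54.2 in T803, 37.7 in ZJ32, 14.7 in 11c320, 14.2 in 11c255, 1.57 in ZJ9 and 1.33 in ZJ49. ZJ49, whose summed share exceeded those of 5 other lines, was lowest for this gene. Capana10g001064 had 618 RPKM in SP3 and 107 in G16, and 0.167 to 1.96 in the other 6. Capana05g002382 had 68.2 RPKM in SP3, 1.51 in G16 and at most 0.326 in the others.

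The 5 most abundant genes were graded across the lines in a like way. Capana01g000309 had 28679 RPKM in SP3, 16740 in G16, 6695 in ZJ49, 2166 in ZJ32, 404 in 11c320, 189 in 11c255, 141 in T803 and 14.9 in ZJ9. Capana00g001372 had 10029 in SP3, 4868 in ZJ49, 2741 in G16, 1019 in ZJ32, 70.3 in 11c320, 43.7 in T803, 33.5 in 11c255 and 10.9 in ZJ9. For this gene ZJ49 exceeded G16. The 8 genes of 10000 RPKM or more in Zunla 1 ran from 4509 to 28679 RPKM in SP3 and from 2.71 to 14.9 in ZJ9, so those ranges did not overlap.

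Some genes left this order. The narrowest range, 0.58, belonged to Capana05g001148, which had 0 RPKM in 6 of the 8 lines, 0.355 in ZJ49 and 0.495 in SP3, although Zunla 1 had 7.38 at mature green and 97.6 at breaker. Capana11g000252, named after its values were seen, had 353 RPKM in G16, 154 in SP3, 83.2 in 11c320, 31.7 in 11c255, 14.7 in T803 and 0.215 to 1.32 in the other 3, against 50 in Zunla 1. In all, 23 members were higher in at least 1 of the 8 lines than in Zunla 1 mature green fruit, among them 19 in SP3 and 11 in G16. No share over all genes was computed for these counts, and they are not read as unusual.

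Fruit 5 days after breaker from ZJ49 and ZJ7 was then compared with the 8 mature green libraries, to ask how the genes stood in later fruit of lines outside the choice. Red fruit is used here as a short name for fruit 5 days after breaker and is not a statement of its colour. The share of summed RPKM was 3.50% in ZJ49 and 7.61% in ZJ7 (5.56% ± 2.90, SD, n = 2), inside the range of the mature green lines. Of 98 members tested, 4 rose and 0 fell at an adjusted p under 0.05 (limma on log2(RPKM + 1), two-sided, Benjamini-Hochberg over 21243 genes). Over all genes, 4.25% rose and 6.9% fell, so the members' count of rises was near the background. By sign 75 of the 98 were higher and 23 lower, beside 40% and 60% of all genes. The members' median difference was 0.85, from -2.74 to 5.50, beside a median of -0.23 over all genes. At an unadjusted p under 0.05 the same limma fit had 11 members higher and 0 lower, beside 10.3% and 19.3% of all genes. Of the 98 members, 5 passed the filter only through the red fruit libraries. Lines stood in for replicates here, so the p-values measure the spread between lines. ZJ49 has a library in both groups and the fit did not pair them, so the libraries are not fully independent. Depth is also uneven, with both red fruit libraries in the shallower set and 11c255, 11c320, G16, T803 and SP3 in the deeper one.

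The largest of the 4 rises was that of Capana10g001754. At mature green it had 128 RPKM in ZJ49, 37.0 in SP3, 16.2 in ZJ9, 7.83 in ZJ32, 5.28 in G16, 1.85 in T803, 0.233 in 11c320 and 0.139 in 11c255 (24.5 ± 43.5, SD, n = 8). At 5 days after breaker it had 195 RPKM in ZJ49 and 686 in ZJ7, so the groups did not overlap. The gene was picked by its call in these libraries, so that separation is no further support. The difference was 5.50 (SE 1.57) on the log2 scale with an adjusted p of 0.0472 in limma. The call was lost, in the same direction, in 13 of the alternative settings tried, and with HYL and ZJ49 as blocks the difference was -0.87 (limma adjusted p = 0.257). In Zunla 1 the mature green, breaker and 5-day values of this gene were 1407, 2294 and 160 RPKM.

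The other 3 had values at or near 0 at mature green, and are named because the count is small. Capana05g001148 and Capana07g000340 reached 1 RPKM in the red fruit libraries alone, so they entered the test through the group where they were high and their calls were in part set by the filter. Capana05g001148, described above at mature green, had 4.45 RPKM in ZJ49 and 40.7 in ZJ7 at 5 days after breaker, a difference of 3.79 (SE 0.56, limma adjusted p = 0.00395). Capana00g002278 was at 0 in 6 mature green lines, 1.85 RPKM in ZJ49 and 1.89 in SP3, and had 7.69 and 16.2 RPKM at 5 days, a difference of 3.23 (SE 0.52, limma adjusted p = 0.00562). Capana07g000340 was at 0 in 5 lines and at most 0.823 RPKM in the other 3, and had 4.24 and 3.05 RPKM at 5 days, a difference of 2.01 (SE 0.30, limma adjusted p = 0.00395). In each, both red fruit values lay above all 8 mature green values. These genes were picked by their calls in the same libraries, so that separation is no further support. In HYL each of the 3 genes was lower 5 days after breaker than at mature green. The values went from 191 to 5.2 RPKM for Capana05g001148, 20.5 to 0.525 for Capana00g002278, and 0.979 to 0.115 for Capana07g000340. With HYL and ZJ49 as blocks, none of the 3 was called in limma, at -1.47 (adjusted p = 0.31) for Capana05g001148 and -1.11 (adjusted p = 0.452) for Capana00g002278, and Capana07g000340 did not enter that test.

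The counts of this comparison moved with single libraries. Without ZJ49 mature green fruit, 8 of 98 members rose beside 7.56% of all genes, and without SP3, 8 of the 93 then tested rose beside 3.77%. Without the red fruit of ZJ49, the lone red fruit library set the filter at 1 library, 2 members rose and the count over all genes went from 902 to 163 higher. On the genes of the full comparison these were 1 and 97. Among the shallower libraries alone, 3 mature green against the same 2 red fruit libraries, limma called 0 members and 0 genes. There 34 of 89 members were higher and 0 lower at an unadjusted p under 0.05 in limma, beside 5.97% and 11.2% of all genes, with a median of 1.84 beside -0.17. Members under 1 RPKM in 2 or all 3 of these mature green libraries passed the filter only with the red fruit, where they were high. Their number among the 34 and the 89 was not counted, so these shares are in part set by the filter. With libraries rescaled by median of ratios, 6 members rose beside 6.13% of all genes, and 54.9% of all called genes were rises instead of 38.1%. That scaling moved the median of all genes from -0.23 to -0.07 and that of the members from 0.85 to 1.02.

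The pair of lines with both stages gave different pictures. In ZJ49, 34 of 86 members were more than 2-fold higher 5 days after breaker on the log2(RPKM + 1) scale, 1 was more than 2-fold lower and 51 lay between, with a median of 0.73. Of all 18571 genes in that line, 10.4% were 2-fold higher and 17.7% 2-fold lower, with a median of -0.14. In HYL, 1 of 80 members was more than 2-fold higher, 65 were lower and 14 lay between, with a median of -1.71, and of all 18267 genes 6.96% were higher and 42.4% lower, with a median of -0.79. Each line has 1 library a stage, so these folds have no test, and the difference between the lines was not tested.

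**Figure D5:**
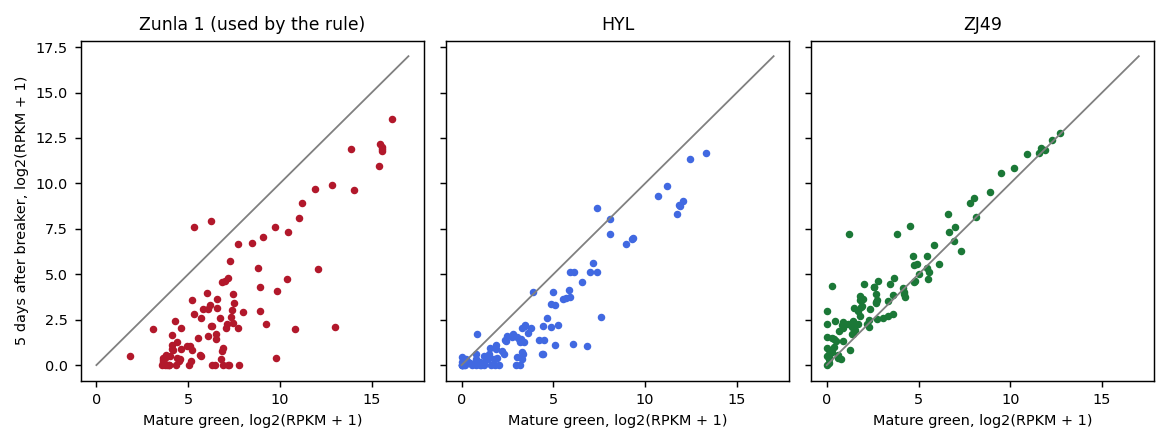
Level of each of the 100 genes 5 days after breaker (vertical) against mature green (horizontal), both as log2(RPKM + 1), in Zunla 1, HYL and ZJ49, with the line of equal levels. In ZJ49 34 genes lie more than 2-fold above the line and 1 below it, in HYL 65 lie more than 2-fold below it, and the Zunla 1 panel shows values that chose the genes.

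With line as a block over ZJ49 and HYL, 1 of 82 members rose and 3 fell in limma with Benjamini-Hochberg adjustment, against 3.56% of all 17997 genes called higher and 12.7% called lower. The median was -0.57 for members and -0.41 for all genes. With 4 libraries and terms for line and stage, little spread is left for any single gene. The p-values of this fit therefore lean on the spread that eBayes shares across genes. The fit also averages a C. annuum and a C. chinense line, whose member medians were 0.73 in ZJ49 and -1.71 in HYL. Capana07g002303 rose, from 164 to 406 RPKM in HYL and from 95.4 to 322 in ZJ49, a difference of 1.53 (SE 0.43, limma adjusted p = 0.0105). Capana01g000548 fell from 32.9 to 1.19 RPKM in HYL and from 45.1 to 25.9 in ZJ49, by 2.37 (SE 0.63, limma adjusted p = 0.00659). Capana00g004671 fell from 58.4 to 12.6 RPKM in HYL and from 161 to 77.9 in ZJ49, and Capana04g002212 fell from 19.6 to 0.544 in HYL and from 9.15 to 5.6 in ZJ49. These 4 are named because the counts are small, and each moved one way in both lines.

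Mature green fruit of HYL and breaker fruit of chiltepin were compared with the 5 non-fruit libraries of the same lines, with line as a covariate, to ask whether the genes were fruit genes outside cultivated C. annuum. Of 53 members that passed the filter of 1 RPKM in 2 libraries, limma called 0 higher and 0 lower, with a lowest adjusted p of 0.398. Over all 21269 genes, 0.0799% were called higher and 0% lower. At an unadjusted p under 0.05 limma had 17 of the 53 higher and 0 lower, beside 3.33% and 2.78% of all genes. Of the 53, 16 passed the filter only with a fruit library, so their higher values in fruit were in part set by it. By sign 45 of the 53 were higher and 8 lower, beside 52.6% and 47.4% of all genes. The members' median was 1.32, from -0.82 to 5.98, beside 0.03 for all genes.

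The fruits of these lines differed. The share of summed RPKM was 3.98% in HYL mature green fruit and 1.11% at 5 days after breaker, against 0.0476% in its root, 0.0416% in stem and 0.0247% in leaf. In chiltepin it was 0.0623% in breaker fruit, 0.0346% in leaf and 0.0592% in flower. HYL fruit thus lay far above its organs, and chiltepin fruit lay beside its flower. In HYL, 67 of the 84 members that reached 1 RPKM in any of the 4 libraries were higher in mature green fruit than in its 3 organs, beside 21.1% of all such genes. In chiltepin, 22 of 40 such members were at or below the leaf or flower level in fruit, beside 53.8% of all such genes, a share near the background. In both counts, a gene at 1 RPKM or more in fruit alone stood above the organs by that filter. The shares over all genes are thus not a fully like background. Among genes at 1 RPKM or more in HYL fruit or any organ of both lines, 33 of 86 members reached it in fruit alone, beside 334 of 23436 genes. A further 19 members were at 0 in all 3 chiltepin libraries.

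When chiltepin fruit was left out, HYL fruit was the lone fruit library, the filter became 1 RPKM in 1 library, and limma called 27 of 86 members higher and 0 lower, against 0.614% of all 23436 genes called higher. Of those 27, 17 reached 1 RPKM in no organ and so entered only through the fruit library where they were high. On the genes of the comparison with both fruits, a set chosen after seeing the data, limma called 10 of 53 members higher, beside 0.306% of all genes, and 1 of the 10 had passed the filter only with a fruit library. The lone fruit library is assumed in both to vary like the organs. Without HYL fruit, limma called 0 members. A test of whether the fruit effect differed between the lines, added after seeing the data, called 0 of 21269 genes in limma, with a lowest adjusted p of 0.239. Each line has 1 fruit library, so the spread in that test comes from the organs alone. At an unadjusted p under 0.05 limma had 20 of the 53 members with a larger effect in HYL and 1 with a larger effect in chiltepin, beside 2.32% and 4.57% of all genes, and no difference between the lines is read from these counts. The stages also differ, mature green in HYL and breaker in chiltepin, and line and stage cannot be told apart.

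Capana01g000309 was the highest member in HYL mature green fruit, with 10047 RPKM, and had 3298 at 5 days after breaker, 6.48 in root, 4.91 in stem and 0 in leaf. In chiltepin it had 0 RPKM in fruit and leaf and 0.312 in flower. The 8 most abundant genes ran from 619 to 10047 RPKM in HYL mature green fruit and reached at most 0.396 RPKM in chiltepin breaker fruit. Capana00g001935, named after its values were seen, had 1637 RPKM in HYL mature green fruit and 0 in its organs, against 136 in Zunla 1 and at most 42.7 in the 8 C. annuum lines. Of 98 members at 1 RPKM or more in any of these 9 libraries, 7 were higher in HYL than in each of the 8 lines, beside 17.9% of all such genes.

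Breaker-peaking genes of Zunla 1 took different levels in HYL. Capana05g001148 had 191 RPKM in HYL mature green fruit and 5.20 at 5 days after breaker, where the 8 C. annuum mature green lines had at most 0.495. Capana00g001371 had 127 RPKM in HYL mature green fruit, but Capana00g001370, its neighbour by number with a like course in Zunla 1, had 0. Among chiltepin fruit values the highest was Capana03g000999 with 126 RPKM, a gene that is also at 34.1 in leaf and 66.5 in flower there and at 9.05 to 20.9 in the organs of Zunla 1. Capana11g000252 had 34.6 RPKM in chiltepin breaker fruit against 1.92 in flower and 0.82 in leaf.

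Over all libraries outside Zunla 1 that carry a group, the highest value of a member lay in SP3 for 72 genes, in G16 for 10, in ZJ7 red fruit for 6 and in HYL mature green fruit for 4. For 22 members it exceeded the highest Zunla 1 value. A vegetative organ, HYL root, stem or leaf, held it for 1 gene each. No share over all genes stands beside these counts, so they describe the members only and are not read as unusual.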

How the data were processed

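RNA abundance was measured by poly(A) RNA sequencing, per the labels' protocols. The authors deposited 1 table of RPKM values for 31426 genes in 33 libraries, with no aligner, genome build or counting tool named (not given in the sources used here). RPKM is relative to mapped reads, so when a few genes take a large share of a library the values of all others are lower there. Relative read totals and coding lengths were recovered from the smallest RPKM steps (25546 genes with a length, 100% of values whole within 0.01 reads). Recovered reads made up 92.1% to 96.1% of the totals. Lengths that are nearly all multiples of 3 hold no untranslated regions. Libraries were sequenced 12 to a lane, per the series design, and the lane of each library was not used here.

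The members and gene lists were chosen with earlier results of these data known. Differences came from limma 3.58.1, run in R 4.3.3 with eBayes and its trend option, on log2(RPKM + 1), which understates changes of low genes. A gene entered a fit when the number of its libraries at 1 RPKM or above reached the size of the smaller group, which is 2, or 1 where a library of that group was left out. A gene that passed only through the group where it was high differs in part by that choice. The p-values were Benjamini-Hochberg adjusted over all genes tested, with a threshold of 0.05. Each line and stage is 1 library, so lines or organs stood in for replicates. ZJ49 and HYL pair their stages by line name, and the deviations of ZJ49 from the stage means had a correlation of 0.61 across genes. A sum over genes is a description with no test.

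Genes named were the first 5 in the rank, the 5 of highest mean, those at the edge of the rule, the largest changes called in each test, the widest and narrowest range over the 8 lines, and the highest in HYL mature green and chiltepin breaker fruit. Others are marked as named after their values were seen. Alternatives were another pseudocount (0.1), no filter, median-of-ratios scaling, the shallower libraries alone, line as a block, no line term, added libraries, and leaving out each library. The library with conflicting line names entered no comparison.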

Additional observations from a re-analysis of the deposited data

Results flagged for a closer look

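Over the 8 C. annuum mature green lines, 16 results were tested for a sample far from the others, and 8 had one, which was SP3 in 7. The rate of about 1 in 20 groups by chance is nominal and was not checked for values like these. RPKM can spread unevenly over the 8 lines, as with 1067 ± 2558 (SD) for Capana11g000329. The results also share the same libraries, so no excess over chance is read from the count. The share of summed RPKM was 16.4% in SP3, beside 7.64% in G16 as the next. Among single genes SP3 stood far above the rest for Capana10g001064 (618 RPKM), Capana11g000329 (7330 RPKM), Capana05g002382 (68.2 RPKM) and Capana03g003834 (658 RPKM). The same held for Capana03g003298 (24637 RPKM) and Capana03g003296 (22388 RPKM). The title and description of the SP3 library name different lines, and the part of that in these values was not tested.

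For Capana10g001754 the far sample was ZJ49, with 128 RPKM at mature green beside 37.0 in SP3 as the next. ZJ49 also gave 1 of the 2 red fruit libraries of that comparison, where the gene had 195 RPKM.

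From mature green to 5 days after breaker the share of summed RPKM moved by -2.87 percentage points in HYL and by 0.754 percentage points in ZJ49. The directions are opposite, each line has 1 library a stage, and the difference was not tested.

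The library without a group, whose title and description name different lines, held 14.2% of its summed RPKM in the 100 genes. That is above the Zunla 1 organs, of which bud was highest at 0.0424%.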

How the results depend on the processing

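Of the alternative values computed, 128 stayed on the same side of their threshold or near the main value, 51 moved, 13 lost their call in the same direction and 1, a single gene's difference, reversed. A median counted as near when it shifted by less than the median residual SD of the members, whatever its sign. The 128 thus include the member median of red against mature green fruit with line as a block, -0.57 instead of 0.85. They also include the member median of fruit against organs without HYL fruit, -0.00 instead of 1.32. The reversed gene was Capana10g001754 in red against mature green fruit, at -0.87 with line as a replicate block over ZJ49 and HYL. That block brings in HYL, absent from the main comparison, where the gene went from 651 RPKM at mature green to 126 at 5 days after breaker. In ZJ49 the gene went up, from 128 to 195 RPKM. Its other alternatives ran from 3.77 to 6.40, with limma adjusted p from 0.00931 to 0.262. In that block 2294 genes were lower instead of 1465, and 1 member was higher and 3 lower instead of 4 and 0, on 82 members and 4 libraries. Within the shallower set 0 genes were higher, 0 lower and 0 members higher, with 3312 genes at an unadjusted p under 0.05 in limma. Leaving out 1 library at a time gave 97 to 1599 genes higher, 34 to 2814 lower, 1 to 8 members higher, 0 members lower and a member median of 0.59 to 1.46. The libraries that moved the counts over all genes by more than 1.5 times were ZJ49 red fruit (163 and 46, or 97 and 34 on the genes of the full comparison), ZJ7 (559 and 745, or 416 and 732), ZJ49 mature green (1599 and 2814), 11c255 (588 and 915) and 11c320 (593 and 925).

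For fruit against organs in HYL and chiltepin, the 17 genes called higher became 5 with a pseudocount of 0.1 and 10 with no filter. The 0 called lower became 1 with median-of-ratios scaling and 1 with no line term. With the 8 C. annuum mature green libraries added and no line term, 656 genes were higher, 613 lower and 17 members higher. All added libraries were fruit, and every non-fruit library came from HYL or chiltepin. Organ and line therefore cannot be told apart there, and nothing about the members is read from these counts. Leaving out 1 library gave 0 to 144 genes higher, 0 to 7 lower, 0 to 27 members higher and a member median of -0.00 to 2.68. Leaving out chiltepin fruit gave 144 and 7, with 27 members, but also lowered the filter to 1 library and raised the genes tested from 21269 to 23436 and the members from 53 to 86. On the genes of the full comparison it gave 65 and 4, with 10 members, a setting chosen after seeing the data. Leaving out HYL fruit gave 0 higher under both filters. Without chiltepin flower the counts were 31, 3 and 1 member, without HYL root 7 genes were higher, and without HYL leaf, HYL stem or chiltepin leaf 0 were.

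The share in Zunla 1 mature green fruit was 40.9% without the 10 most abundant other genes, and 34.0% when recovered reads were divided by the read total. In breaker fruit these were 29.6% and 20.7%. Leaving out 1 line moved the mean share from 1.82% to 4.16% at mature green, the low end without SP3, and from 3.50% to 7.61% in red fruit. Of the 100 genes, 96 remained with an offset of 0.1 in the ranking, 90 with scaled libraries and 80 when the lower of both stages was ranked.

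Depth limits the genes listed at 0, and 1 library for each line and stage limits every comparison within a line.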

Other observations

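The library named for HYL in its title and for Zunla 1 in its description, at the breaker stage by its labels, was left without a group. Its share of 14.2% of summed RPKM corresponds to 12.61% of its read total. The median member had 66.7 RPKM there, 74 members reached 10 RPKM, and 35 exceeded all 8 C. annuum mature green lines, with no share over all genes computed beside these counts. Capana01g000309 had 21839 RPKM and Capana01g000302 had 23252. Capana00g001935 had 3779 RPKM, beside 136 in Zunla 1 mature green and 1637 in HYL mature green fruit. Capana00g001370 had 0 RPKM, beside 1973 in Zunla 1 breaker and 0 in HYL mature green fruit, and Capana00g001371 had 337, beside 2589 and 127. Capana11g000329 had 2233 RPKM, beside 37.4 in Zunla 1 breaker and 7.70 in HYL mature green fruit.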
